A study of Mus musculus with 2 samples.

Results

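Splicing factor genes of 5 families were followed in cultures labelled as mouse neonatal cardiomyocytes, heart muscle cells taken around birth. Cultures were transfected with either an antagomir against the piRNA FERPIR or a negative control. An antagomir is a chemically modified antisense oligonucleotide that blocks a small RNA, and piRNAs are the small RNAs that PIWI proteins carry. There was 1 library per group. Both samples also carry the treatment label PBS, and the labels give neither the mouse strain nor the dose, time or number of animals. The members were all genes of the deposited FPKM table whose symbol begins with Snrp, with Lsm and a digit, with Sf3a or Sf3b, with Srsf or with Hnrnp. This gave 64 of 10982 genes, made up of 12 Sm and U snRNP genes, 13 LSm genes, 9 SF3 genes, 10 SR genes and 20 hnRNP genes. FPKM is a fragment count divided by transcript length and by the library's total, so levels of different genes can be compared per length. FERPIR itself was not analysed here, so the knockdown was not measured.

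The spliceosome removes introns from pre-mRNA and is built from small nuclear RNAs and proteins. Sm proteins form a ring of 7 subunits on the U1, U2, U4 and U5 small nuclear RNAs, and the LSm2 to LSm8 proteins form a like ring on U6. SF3A and SF3B are parts of the U2 particle and hold it at the branch point. SR proteins, rich in arginine and serine, mostly promote the use of exons, and hnRNP proteins coat nascent transcripts and often act against exon use. In the heart, alternative splicing of sarcomere and calcium-handling transcripts shifts around birth.

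Single libraries allow neither a test nor a spread between replicates, and each value describes these 2 libraries. In bulk RNA, fewer cells of a type and less RNA per cell cannot be told apart. Log2 ratios and folds were antagomir over control on the scale of FPKM + 1, which understates differences of low genes. The FPKM of all genes summed to 312806 in the antagomir library and 295404 in the control library, but how many reads they rest on is unknown. Of 12 cardiomyocyte marker genes 2 had values in the table used here, the troponin genes Tnnt2 and Tnnc1, and together they had 27.1 FPKM in the antagomir library against 5.86 FPKM in the control library. Of 9 fibroblast markers 6 had values and summed to 341 FPKM in the antagomir library against 548 FPKM in the control library, with Col3a1 at 249 and 358 FPKM. Of these 6 markers 5 were lower in the antagomir library, with log2 ratios between -0.42 (Dcn) and -1.83 (Ddr2). Pdgfra was higher, with 1.66 FPKM in the antagomir library against 1.19 FPKM in the control library. None of 6 endothelial markers and 1 of 6 macrophage markers, Lyz2 (4.44 and 3.28 FPKM), had values. None of the marker genes with values was listed at 0, and a gene without a value is not read as low. Markers of both cell types thus differed between the libraries, and their part in the splicing factor values was not tested.

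Sm and LSm genes, which include those for the ring proteins, had higher FPKM in the antagomir library for the most part. By median log2 ratio the other 3 families stood closer to even. The shortest of 5 length groups of all genes holds 16 of the 25 Sm and LSm genes, and 69.8% of that group were above 0. With length and GC content allowed for, medians were 0.26 for Sm, 0.18 for LSm, 0.24 for hnRNP and 0.04 for SR and SF3 genes. By median the contrast with hnRNP genes was then gone. At least 1.5-fold higher were then 4 of 13 LSm, 3 of 12 Sm and 2 of 20 hnRNP genes, beside 8.44% of all genes. Lower by as much were 1 LSm, 1 Sm and 0 hnRNP genes, beside 12.5% of all genes. Of the 64 members 45 had a log2 ratio above 0, beside 46.0% of the 10201 genes that reached 1 FPKM in the higher library. The 1.5-fold limit was passed upward by 14 members, 21.9% of them, against 10.8% of all genes. Downward it was passed by 3 members, 4.69% of them, against 13.4% of all genes. The 2-fold limit was passed by 4 members upward, Lsm8, Snrpe, Lsm3 and Lsm5, and by 1 downward, Sf3b4, where 2.88% of all genes were higher and 3.79% lower. Over all genes 1104 were at least 1.5-fold higher and 1364 lower. The split became 1071 and 2037 when both libraries were rescaled to the same, larger total with the pseudocount kept at 1. Such rescaling also lessens the weight of the pseudocount, and a pseudocount of 0.1 without rescaling gave 1440 and 1782. The change in the split is therefore not that of equal totals alone. The members held 1.36% of all FPKM in the antagomir library and 1.15% in the control library.

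**Figure D1:**
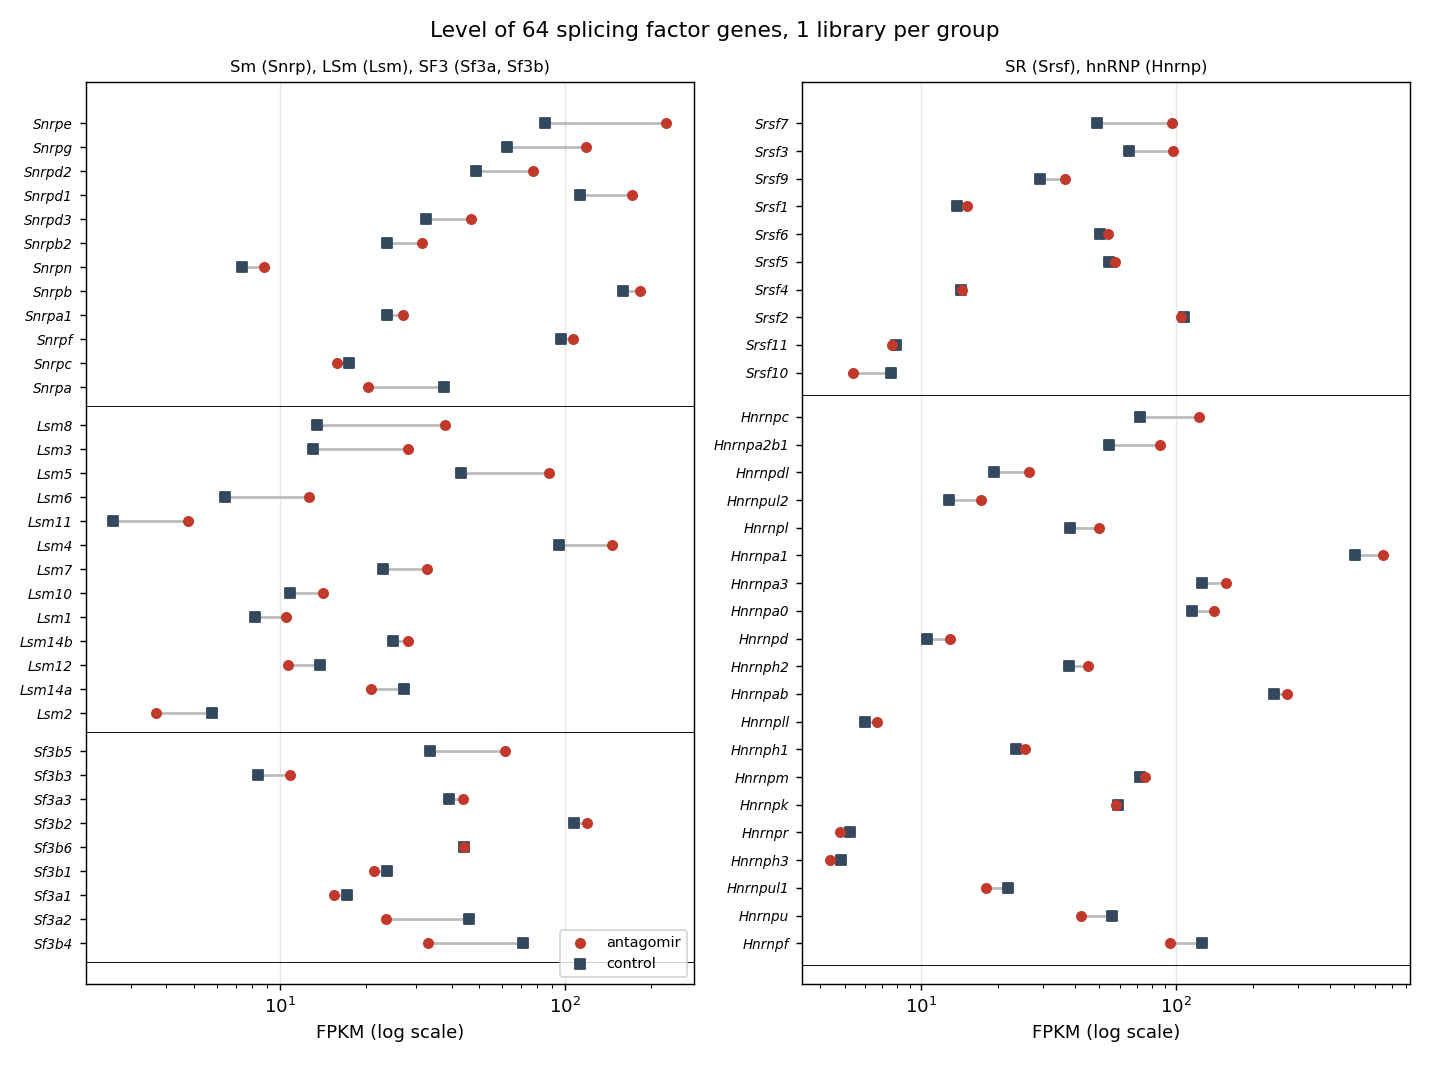
FPKM on a log axis for each of the 64 genes, with red circles for the antagomir library and dark squares for the control library (1 library each) and a grey line joining the pair. Within each family genes run from the highest to the lowest log2 ratio: Snrpe and Lsm8 show the widest gaps to the right, and Sf3b4, Sf3a2 and Snrpa the widest to the left.

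The LSm genes had the highest family median log2 ratio, 0.49, followed by the Sm genes with 0.31 and the hnRNP genes with 0.21. The SR genes had a median of 0.09 and the SF3 genes one of -0.01, while that of all genes was -0.05. Summed over a family, Sm genes had 1033 FPKM in the antagomir library against 708 FPKM in the control library, and LSm genes 438 against 288 FPKM. The corresponding sums were 488 against 399 FPKM for SR genes and 1907 against 1605 FPKM for hnRNP genes. SF3 genes were the single family with a lower sum, 373 FPKM in the antagomir library against 391 FPKM in the control library. The sign of the SF3 median depended on the scaling, since it was 0.04 after centring on the median of all genes. Ranges of the families overlapped: log2 ratios ran between -0.85 and 1.41 in Sm, -0.54 and 1.42 in LSm, -1.08 and 0.85 in SF3, -0.43 and 0.96 in SR and -0.42 and 0.76 in hnRNP genes.

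**Figure D2:**
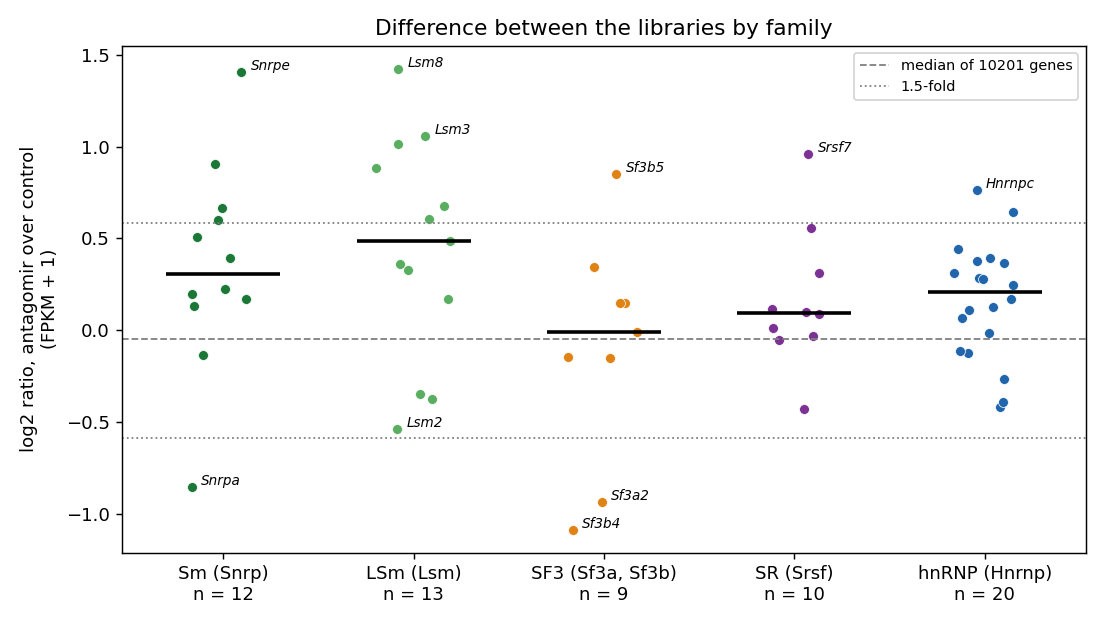
Log2 ratio of FPKM + 1, antagomir over control, for each member (points) by family, with the family median as a black bar, the median of all 10201 genes as a dashed line and the 1.5-fold limits as dotted lines. The LSm and Sm medians, 0.49 and 0.31, lie above the other 3, and every family holds genes on both sides of 0.

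The members furthest apart between the libraries were ring proteins at the upper end, and SF3 and U1 proteins at the lower end. To show DNA in front of members at both sides, 100 bases upstream of the RefSeq start are given in build GRCm38.p6, 5′ to 3′ on the gene's strand. Of the 55 members with a RefSeq entry, 18 had such a stretch outside the gene's own interval in the table and outside every GENCODE M21 exon, and the 3 highest and 3 lowest of these by log2 ratio, among genes reaching 5 FPKM, are shown. Most members furthest apart are not among them, since the stretches before Lsm8, Snrpe, Lsm3, Lsm5 and Sf3a2 did not meet this. Capitals mark matches to the motifs named in the next paragraph.
Lsm6 (chr8:78821153-78821252, minus strand): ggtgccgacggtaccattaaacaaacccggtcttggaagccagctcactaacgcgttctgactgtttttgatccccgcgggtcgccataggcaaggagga
Hnrnpa2b1 (chr6:51469895-51469994, minus strand): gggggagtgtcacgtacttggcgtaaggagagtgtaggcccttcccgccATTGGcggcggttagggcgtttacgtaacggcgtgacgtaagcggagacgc
Hnrnpa1 (chr15:103240297-103240396, plus strand): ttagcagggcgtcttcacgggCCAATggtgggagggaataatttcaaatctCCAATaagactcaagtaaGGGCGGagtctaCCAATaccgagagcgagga
Hnrnpul1 (chr7:25754760-25754859, minus strand): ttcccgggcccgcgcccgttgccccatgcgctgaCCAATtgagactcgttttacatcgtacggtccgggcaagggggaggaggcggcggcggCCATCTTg
Hnrnpu (chr1:178337816-178337915, minus strand): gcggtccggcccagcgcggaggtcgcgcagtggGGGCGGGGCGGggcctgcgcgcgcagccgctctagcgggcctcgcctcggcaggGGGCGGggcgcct
Snrpa (chr7:27196272-27196371, minus strand): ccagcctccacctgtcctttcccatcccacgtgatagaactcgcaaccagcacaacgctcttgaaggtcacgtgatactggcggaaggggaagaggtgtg

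Promoter entries were found for 55 of the 64 members. Windows of 300 bases, 250 before to 50 after the first listed start, were searched on both strands for 6 motifs. The ETS motif CCGGAAG was in 17 member promoters, 30.9%, against 20.4% of the promoters of all genes with values and 9.12% of all RefSeq promoters. Families differed in this, with 6 of 7 SF3, 4 of 10 Sm, 4 of 10 SR, 1 of 10 LSm and 2 of 18 hnRNP promoters. TGCGCA, the core of the NRF1 motif, was in 15 member promoters, 27.3%, against 16.0% and 8.06%. The SP1 motif GGGCGG was in 72.7%, against 67.8% and 35.9%, and CCAAT in 49.1%, against 39.7% and 37.9%. TATAAA was in 6 member promoters, among them that of Snrpa, 10.9% against 6.41% and 14.2%. AAGATGG, the core of the YY1 motif, was in 3 member promoters, 5.45% against 7.89% and 6.48%. None of the 6 motifs contains another. Among the 6 shown, the whole window held the SP1 motif in all but Hnrnpa2b1, and CCAAT in Lsm6, Hnrnpa2b1, Hnrnpa1 and Hnrnpul1, from both sides. These matches describe letters in the windows and say nothing of binding.

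All 7 genes of the common Sm ring had higher FPKM in the antagomir library, 930.0 FPKM in sum against 598 FPKM in the control library. Snrpe, which encodes the ring subunit SmE, had 227 FPKM in the antagomir library and 84.9 FPKM in the control library, a 2.65-fold difference on the scale of FPKM + 1. Snrpg, the SmG gene, had 118 FPKM in the antagomir library against 62.6 FPKM in the control library (1.87-fold). Snrpe had the highest FPKM of the 7 in the antagomir library, and Snrpb had it in the control library. Snrpd2 had 77.5 against 48.5 FPKM (1.58-fold) and Snrpd1 had 172 against 113 FPKM (1.51-fold), antagomir against control. Snrpd3 had 46.7 against 32.5 FPKM, just inside the 1.5-fold limit at 1.42-fold, and was the lowest of the 7 in both libraries. Snrpb, which encodes SmB, had 183 FPKM in the antagomir library and 159.5 FPKM in the control library, and Snrpf, which encodes SmF, had 106 and 96.9 FPKM, so the 2 were close to even. The proteins enter the ring in equal number, yet the highest FPKM exceeded the lowest 4.86 times in the antagomir library and 4.91 times in the control library. Of the 7 genes 6 are in the shortest of 5 length groups of all genes, in which 69.8% were above 0 and 27.0% at least 1.5-fold higher. With the trend over length and GC content taken out, Snrpe, Snrpg and Snrpd3 passed 1.5-fold upward, as did 8.44% of all genes. Snrpd2 (0.51) and Snrpd1 (0.29) did not, and the log2 ratios of Snrpb and Snrpf were -0.11 and -0.17.

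The proteins particular to U1 and U2 did not follow the ring as a block. Snrpa, which encodes the U1 protein that binds a stem-loop of U1 RNA, had 20.4 FPKM in the antagomir library and 37.6 FPKM in the control library, 1.80-fold lower. Snrpc, the U1 protein gene whose product helps recognise the 5′ splice site, had 15.8 and 17.5 FPKM, a log2 ratio of -0.14. The U2 protein genes Snrpa1 and Snrpb2 had 27.0 against 23.8 FPKM and 31.5 against 23.7 FPKM, log2 ratios of 0.17 and 0.39. Snrpn, an imprinted paralog of Snrpb known for its expression in brain and heart, had 8.77 FPKM in the antagomir library and 7.38 FPKM in the control library. Exons of Snrpn overlap those of Snurf, and exons of Snrpa overlap those of BC024978, which had 0.84 and 1.23 FPKM. The authors' use of strand is not stated, so reads of overlapping genes may not be told apart.

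Of the 7 genes of the LSm2 to LSm8 ring, 6 had higher FPKM in the antagomir library, 5 of them by at least 1.5-fold, and 1 was lower. Lsm8, the subunit that sets the nuclear ring on U6 apart from the cytoplasmic ring, had 37.8 FPKM in the antagomir library against 13.5 FPKM in the control library, 2.68-fold higher and the highest ratio of all 64 members. Lsm3 had 28.1 against 13.0 FPKM (2.08-fold), Lsm5 had 88.0 against 43.1 FPKM (2.02-fold) and Lsm6 had 12.6 against 6.41 FPKM (1.84-fold). Lsm4 had 146 FPKM in the antagomir library and 95.4 FPKM in the control library (1.52-fold) and was the most abundant of the ring in both. Lsm7 had 32.7 and 23.0 FPKM, 1.40-fold apart. Lsm2 went the other way, with 3.68 FPKM in the antagomir library and 5.79 FPKM in the control library, and was the lowest of the ring in both. With pseudocounts of 0.1 and 0.01 Lsm2 passed the 1.5-fold limit downward. The highest FPKM of the ring exceeded the lowest 39.7 times in the antagomir library and 16.5 times in the control library, but without Lsm2 it did so 11.5 and 14.9 times, so this order rests on Lsm2. Of the 7 genes 6 are in the shortest of 5 length groups of all genes, where 27.0% were at least 1.5-fold higher and 69.8% above 0. With the length and GC trend taken out 3 of the 7 passed upward, Lsm3, Lsm6 and Lsm8, and Lsm2 passed downward. Over all genes 8.44% then passed upward and 12.5% downward. Lsm4 was then at 0.17, Lsm5 at 0.41 and Lsm7 at -0.18.

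**Figure D3:**
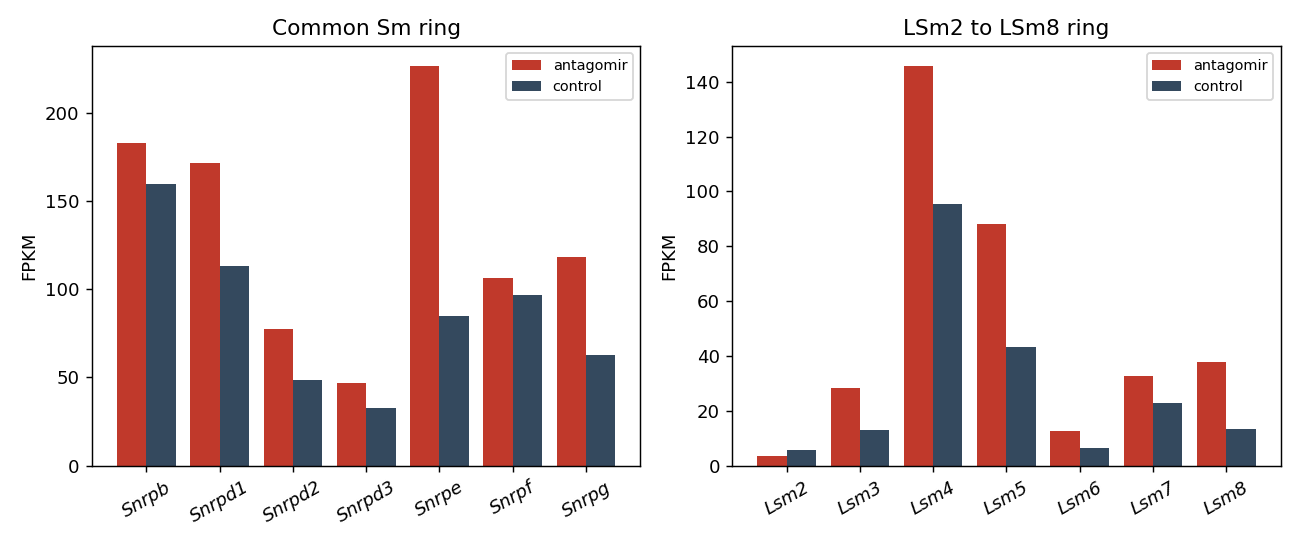
FPKM of the 7 genes of the common Sm ring (left) and the 7 of the LSm2 to LSm8 ring (right), red for the antagomir and dark for the control library, 1 library each. Every Sm gene is higher in the antagomir library, with Snrpe at 227 against 84.9 FPKM, and Lsm2 is the single ring gene that is lower.

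Of the LSm genes outside this ring, all but Lsm11 were inside the 1.5-fold limit. Lsm1, which takes the place of LSm8 in the cytoplasmic ring that promotes mRNA decapping, had 10.5 FPKM in the antagomir library and 8.21 FPKM in the control library, 1.25-fold higher. Lsm10 and Lsm11 encode the subunits particular to the U7 particle, which processes histone mRNA ends. Lsm11 had 4.77 against 2.60 FPKM (1.60-fold) and Lsm10 had 14.2 against 10.8 FPKM (1.28-fold), antagomir against control. The larger proteins LSM12, LSM14A and LSM14B have no known place in the spliceosomal rings, and the LSM14 pair belongs to cytoplasmic granules and translational repression. Lsm12 had 10.7 and 13.8 FPKM and Lsm14a had 20.9 and 27.3 FPKM, both lower in the antagomir library, and Lsm14b had 28.2 and 25.0 FPKM. None of these 3 reached 1.5-fold.

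The SF3 genes went apart from each other, with 6 of 9 inside the 1.5-fold limit, 1 above it and 2 below it. These are 11.1% above and 22.2% below, against 10.8% and 13.4% of all genes. Sf3b4, which encodes a subunit that contacts pre-mRNA near the branch point, had 33.0 FPKM in the antagomir library and 71.1 FPKM in the control library, 2.12-fold lower and the lowest ratio of the 64 members. Sf3a2 had 23.6 against 46.0 FPKM, 1.91-fold lower. Sf3b5, a small subunit of SF3B, had 61.5 FPKM in the antagomir library and 33.6 FPKM in the control library, 1.80-fold higher. The largest subunit, Sf3b1, which clamps the branch-point helix and is often mutated in blood cancers, had 21.4 and 23.7 FPKM, 1.10-fold lower. Sf3b6, the branch-point subunit p14, had 44.2 FPKM in the antagomir library and 44.4 FPKM in the control library. Sf3b2 (119 and 108 FPKM), Sf3b3 (10.9 and 8.35 FPKM), Sf3a3 (43.7 and 39.3 FPKM) and Sf3a1 (15.5 and 17.3 FPKM) differed by less than 1.5-fold. Exons of Sf3a2 overlap those of Plekhj1, which had 25.5 FPKM in the antagomir library and 22.9 FPKM in the control library, and exons of Sf3b4 overlap those of Gm17690. Exons overlap another gene in 25 of the 64 members, beside 3843 of the 10201 genes. The 3 members at least 1.5-fold lower, Sf3b4, Sf3a2 and Snrpa, all have such exons, and of the 14 higher members only Lsm3 does. Among the 6358 genes without such overlap 11.3% were at least 1.5-fold higher and 13.8% lower. Transcripts of the 3 lower members are also rich in G and C, at 56.2%, 62.2% and 57.4%. The median member has 46.2% and the median gene 50.3%. Over 10192 genes the log2 ratio was higher with higher GC content, at a Spearman's rho of 0.15. Over the 64 members it was lower with higher GC content, at a Spearman's rho of -0.17.

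Of the 10 SR genes 1 passed the 1.5-fold limit, Srsf7, and 9 did not. That is 10% higher, where 10.8% of all genes were higher and 13.4% lower. Srsf7 had 96.4 FPKM in the antagomir library and 49.0 FPKM in the control library, 1.95-fold higher. Srsf3, whose short protein also couples splicing to mRNA export, had 96.8 against 65.5 FPKM, 1.47-fold higher and just inside the limit, which it passed after centring or with the trend taken out. Srsf2, also known as SC35, had 105 FPKM in the antagomir library and 107 FPKM in the control library, and its exons overlap those of Mettl23 and Mfsd11. Srsf1, the founding member also called ASF or SF2, had 15.0 and 13.8 FPKM. Srsf5 (57.7 and 54.3 FPKM), Srsf6 (53.8 and 50.1 FPKM), Srsf4 (14.4 and 14.3 FPKM) and Srsf11 (7.67 and 7.98 FPKM) differed by less than 1.1-fold. Srsf9 had 36.5 against 29.2 FPKM, and Srsf10, which acts in the splicing response to heat shock, had 5.40 against 7.62 FPKM, the lowest ratio of the family at -0.43. Srsf12 was not analysed here. SR genes are known to limit their own level through exons that send the transcript to nonsense-mediated decay. In GENCODE M21, 9 of the 10 SR genes have such an annotated transcript, as have 10 of 20 hnRNP, 4 of 12 Sm, 4 of 13 LSm and 1 of 9 SF3 genes, beside 3016 of the 10201 genes. The FPKM values are per gene and do not separate these transcripts.

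The hnRNP genes had the highest summed FPKM of the 5 families, being also the largest, and held 0.610% of all FPKM in the antagomir library against 0.543% in the control library. By median level they had 47.6 FPKM in the antagomir library and 46.4 FPKM in the control library, where Sm genes had 62.1 and 43.1 FPKM. Of the 20 genes 14 were above 0, 70% against 46.0% of all genes. The 1.5-fold limit was reached by 2, both upward. They are 10% of the family, where 10.8% of all genes were higher and 13.4% lower. Hnrnpc, whose protein binds uridine tracts, had 123 FPKM in the antagomir library and 72.0 FPKM in the control library, 1.70-fold higher. Hnrnpa2b1 had 86.1 against 54.7 FPKM, 1.56-fold higher. All 5 genes of the A/B group were above 0, and the other 4 of them were 1.13-fold to 1.29-fold higher. Hnrnpa1, the most abundant member in both libraries, had 646 FPKM in the antagomir library against 502 FPKM in the control library. The 3 others were Hnrnpab with 273 and 242 FPKM, Hnrnpa3 with 157 and 126 FPKM and Hnrnpa0 with 141 and 115 FPKM. Hnrnpdl (26.6 and 19.3 FPKM), Hnrnpd (13.0 and 10.5 FPKM), Hnrnpl (49.9 and 38.2 FPKM), Hnrnph2 (45.3 and 38.0 FPKM) and Hnrnpul2 (17.1 and 12.8 FPKM) were also above 0 and inside the limit.

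The lower side of this family held Hnrnpf, Hnrnpu and Hnrnpul1. Hnrnpf, whose protein binds G-rich tracts, had 94.5 FPKM in the antagomir library and 126 FPKM in the control library, 1.33-fold lower. Hnrnpu, a scaffold protein of nuclear chromatin and RNA needed for heart function in mice, had 42.4 and 55.8 FPKM, 1.31-fold lower, and its exons overlap those of Cox20, which had 66.6 FPKM in the antagomir library and 31.4 FPKM in the control library. Hnrnpul1 had 18.02 against 21.88 FPKM. Near even were Hnrnpk, which binds C-rich tracts, with 58.2 and 58.8 FPKM, Hnrnpm with 75.5 and 72.0 FPKM and Hnrnph1 with 25.5 and 23.5 FPKM. Hnrnpll (6.69 and 6.04 FPKM), Hnrnpr (4.79 and 5.26 FPKM) and Hnrnph3 (4.37 and 4.86 FPKM) were low in both libraries and also near even.

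Transcript length moved with these values. In GENCODE M21 the principal transcript of the median LSm gene had 943 nucleotides, against 2922 for all genes, while SR and hnRNP medians were 2453 and 2678.5 nucleotides (the Sm and SF3 medians were 1204.5 and 3222). Log2 ratio and length ran in opposite directions, with a Spearman's rho of -0.31 over 10192 genes and of -0.25 over the 64 members. The genes share the same 2 libraries and are not independent. All genes were put in 5 length groups of equal size. In the shortest group, up to 1633 nucleotides, the median was 0.28 and 27.0% were at least 1.5-fold higher, beside a median of 0.36 and 8 of 19 for the members in it. In the other 4 groups, from shorter to longer, the members had medians of 0.13, 0.29, 0.17 and 0.00, and all genes had medians of 0.02, -0.08, -0.15 and -0.20. With this trend and that over GC content taken out, the family medians were 0.18 for LSm, 0.26 for Sm, 0.24 for hnRNP and 0.04 for both SR and SF3 genes, where that of all genes was -0.03. The LSm and Sm medians were then close to that of hnRNP genes. Lsm8 (1.09), Lsm6 (1.02), Sf3b5 (0.99), Srsf7 (0.98), Lsm11 (0.86), Snrpe (0.84) and Hnrnpc (0.81) had log2 ratios above 0.8 after this removal, and Sf3b4 (-1.19), Sf3a2 (-1.11) and Snrpa (-1.09) were below -1. Lsm7, with a transcript of 468 nucleotides, turned from 0.49 to -0.18 under the same removal.

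**Figure D4:**
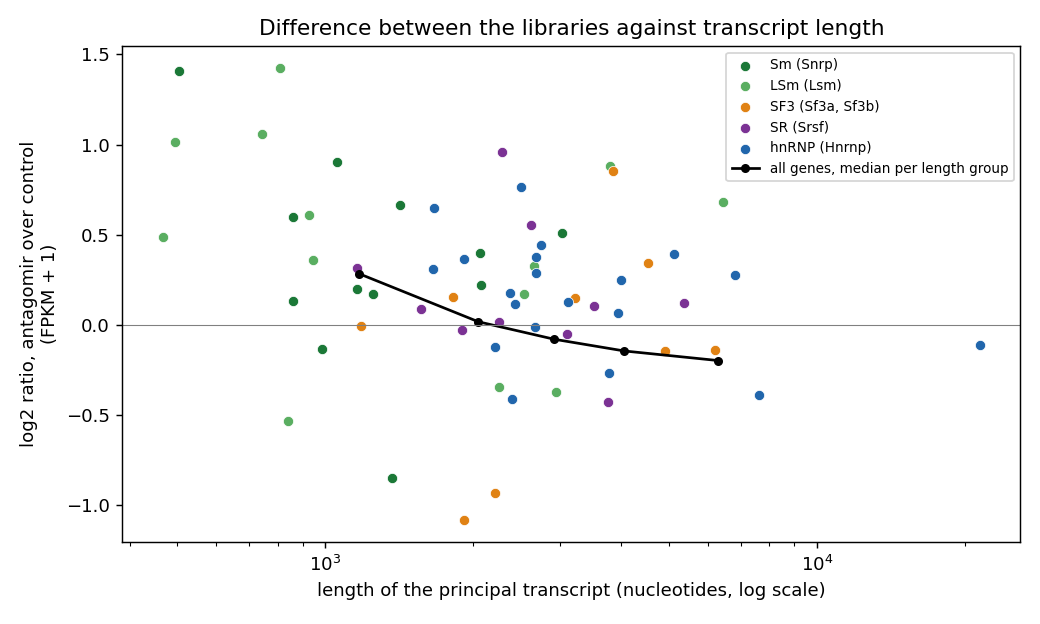
Log2 ratio of each member against the length of its principal transcript (log axis), colored by family, with the median of all genes in each length group as a black line. The line descends from 0.28 in the shortest to -0.20 in the longest group. Many short LSm and Sm genes lie at the upper left, but Snrpa, Lsm2, Snrpc, Snrpf, Snrpa1 and Snrpb lie below the 0.28 of the shortest group. The 3 lowest members, Sf3b4, Sf3a2 and Snrpa, lie under the line.

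Other parts of the splicing machinery were read from 8 lists chosen by function, beside 10.8% of all genes at least 1.5-fold higher and 13.4% lower. Medians with the length and GC trend taken out are given as adjusted medians, that of all genes being -0.03, and with it 8.44% of all genes were 1.5-fold higher and 12.5% lower. Proteins of U snRNPs whose symbols begin with Snrnp had a median of 0.14 on the log2 scale over 7 genes (adjusted median 0.09), and 1 of them, Snrnp35 of the minor U11/U12 particle, was at least 1.5-fold higher (10.2 FPKM in the antagomir library against 4.64 FPKM in the control library). Snrnp70, the third U1 protein, had 11.8 and 12.6 FPKM, and the helicase gene Snrnp200 had 13.8 and 18.8 FPKM. Of 15 genes for U2 auxiliary and branch site factors, 2 were higher and 1 lower by 1.5-fold, with a median of 0.03 and an adjusted median of -0.05. With the trend taken out none was higher and 2 were lower, Rbm17 (-0.64) and U2af1l4 (-0.74), while Sf1 (-0.56) was inside the limit. U2af1, which reads the 3′ splice site, had 225 against 137 FPKM (1.63-fold). Phf5a, a further SF3B subunit that the symbol rule leaves out, had 271 against 177 FPKM (1.53-fold). Sf1, which binds the branch point first, had 13.2 against 21.4 FPKM, 1.57-fold lower.

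In the tri-snRNP list, 4 of 23 genes were higher and 1 lower by at least 1.5-fold, with a median of 0.06 and an adjusted median of 0.13. Prpf8, the large scaffold at the catalytic center, had 14.8 FPKM in the antagomir library and 35.6 FPKM in the control library, 2.31-fold lower, and Ppih, a small cyclophilin, had 16.7 against 7.66 FPKM, 2.04-fold higher. Prpf38a (1.92-fold), Txnl4a (1.54-fold) and Zmat2 (1.52-fold) were the other higher genes. In the list of the Prp19 complex and catalytic step factors, 1 of 27 was higher, Prpf19 with 40.5 against 23.9 FPKM, and 1 lower, Rbm22 with 7.75 against 13.5 FPKM, with a median of 0.01 and an adjusted median of 0.06. SR kinases and SR-related proteins had a median of -0.17 over 26 genes, with Luc7l3 1.65-fold higher and 3 lower, Ppig (2.39-fold), Scaf4 (1.73-fold) and Scaf8 (1.55-fold). This is the list with the longest transcripts, its adjusted median was -0.04 and Scaf8 (-0.47) then came inside the limit. The SMN complex and assembly factors, which load Sm rings on RNA, had a median of -0.11 and an adjusted median of -0.04 over 20 genes. Of these 1 was higher, Gemin6 with 18.6 FPKM in the antagomir library against 10.4 FPKM in the control library, and none was 1.5-fold lower.

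Genes of the exon junction complex and of nonsense-mediated decay had a median of -0.34 and an adjusted median of -0.16 over 17 genes, with Magohb 1.98-fold higher and Smg6, which overlaps Srr, 1.58-fold lower. With the trend taken out 2 were higher, Magohb and Rbm8a, and 1 lower, Smg9, while Smg6 (-0.50) was inside the limit. Magoh, a paralog of Magohb with a near-identical protein, had 158 against 105 FPKM. Among 35 other RNA-binding splicing regulators 4 were higher and 7 lower, with a median of -0.11 that turned to an adjusted median of 0.02. With the trend taken out 4 were higher and 5 lower, Qk (-0.49) and Rbm20 (-0.48) being inside the limit. Both cold-inducible RNA-binding protein genes were higher: Rbm3 had 114 FPKM in the antagomir library against 64.0 FPKM in the control library, and Cirbp had 33.3 against 17.8 FPKM. Rbmx (1.61-fold) and Tardbp (1.58-fold) were the other higher genes. Pcbp2, known also as hnRNP E2, had 103 FPKM in the antagomir library and 207 FPKM in the control library, 2.00-fold lower with exons that overlap Map3k12. Rbm20, which directs splicing of titin in the heart, had 5.47 against 8.78 FPKM, 1.51-fold lower. Raver1 (1.76-fold), Mbnl2 (1.75-fold), Khsrp (1.63-fold), Qk (1.60-fold) and Taf15 (1.53-fold) were also lower.

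**Figure D5:**
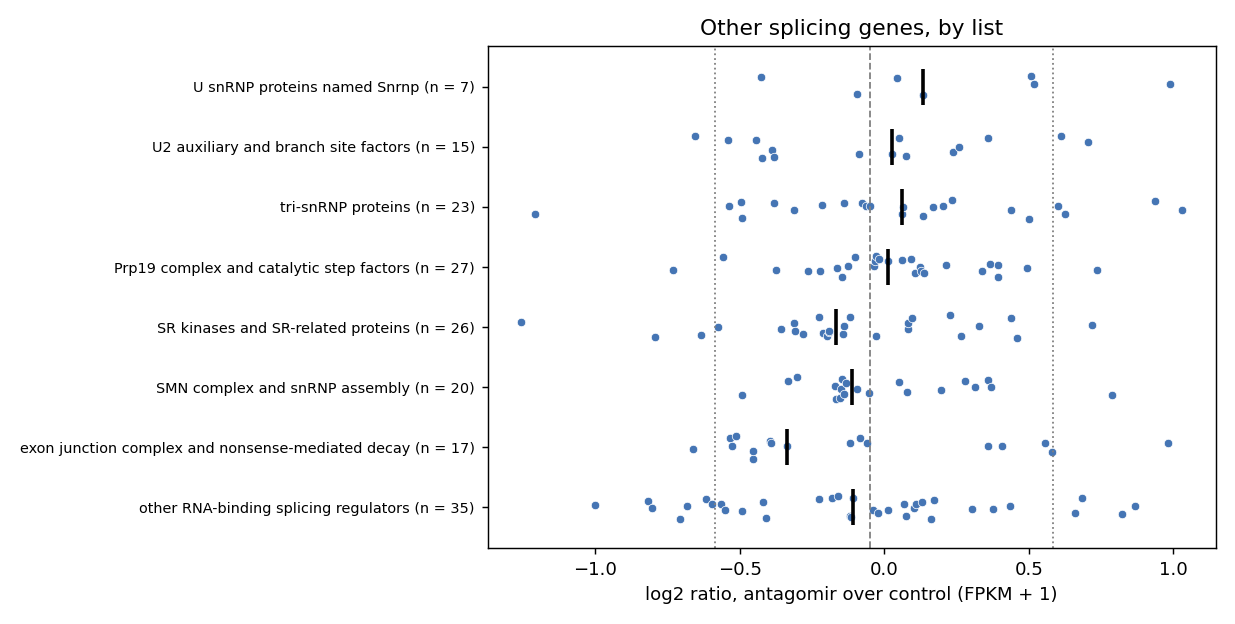
Log2 ratio of FPKM + 1, antagomir over control, for each gene (points) of the 8 other splicing lists, with the list median as a black bar, the median of all genes as a dashed line and the 1.5-fold limits as dotted lines. Medians, with the length trend left in, run from -0.34 for the exon junction complex and decay list to 0.14 for the Snrnp genes, and each list holds genes on both sides of 0.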

How the data were processed

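Total RNA was isolated with TRIzol, per the labels' protocols. These name both poly(A) selection with the KAPA Stranded RNA-Seq kit and ligation of adaptors to each RNA end, so the library type is not settled. The authors deposited FPKM values per gene. They came from cutadapt, HISAT2 and StringTie version 1.3.3 on build GRCm38, per the submitters' processing notes, and the settings of these tools are not stated there. The table had 10992 lines, all protein coding, with 10 symbols on more than 1 line, which were summed. In every gene the higher value exceeded 0.5 FPKM. No clear step of whole reads was found in low values, of which 20% would lie within 0.1 of a whole number without steps. The best of many steps tried fitted 28.9% of them in the antagomir and 35.9% in the control library.

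Log2 ratios used a pseudocount of 1 for genes reaching 1 FPKM in the higher library, and all 64 members passed. Length, GC content and exon overlaps on either strand came from GENCODE release M21 (10982 identifiers matched), with the principal transcript of each gene. The trend over both was a polynomial of degree 2. Promoters were RefSeq's, build GRCm38.p6. Members and lists were chosen with earlier results of these data known. Every member could be named, and in other lists the 2 highest and 2 lowest genes reaching 5 FPKM and any 1.5-fold apart, of which a part is printed. Genes with overlapping exons, such as Plekhj1 and Cox20, are outside this rule and were chosen after their values were seen. Groups came from the sample titles. Python 3.11.15, pandas 2.3.3, numpy 2.4.6, scipy 1.17.1 and matplotlib 3.10.9 were used, and the ratio and trend steps were tested on simulated data.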

Additional observations from a re-analysis of the deposited data

How the results depend on the processing

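No paired analysis was possible because each group has 1 library. The settings tried were pseudocounts of 0.1 and 0.01, 5 FPKM or nothing as the minimum, rescaling to equal totals with and without ribosomal protein, hemoglobin and mitochondrially encoded genes, centring, removal of the length and GC trend, and leaving out members with overlapping exons. Both rescalings raised the totals and kept the pseudocount at 1, so they lessened its weight as well. Removal of the trend with the longest annotated transcript was added after the data were seen. A family median that shifted by more than 0.1 on the log2 scale, or changed sign, is given here. The LSm median was 0.18 with the trend removed and 0.20 with the longest transcript. The SF3 median, -0.01, was 0.040 with the trend removed, 0.025 with the longest transcript and 0.042 after centring. The Sm median was 0.60 over members without overlapping exons, and none of these 39 members was 1.5-fold lower, a count of 0 that follows from leaving out Sf3b4, Sf3a2 and Snrpa. Of the 17 members 1.5-fold apart, 3 came under the limit on rescaling to equal totals of all genes (Hnrnpa2b1, Lsm4 and Snrpd1) and 4 with the trend removed (Lsm4, Lsm5, Snrpd1 and Snrpd2). Others came to pass it: Lsm2 on both rescalings and with both smaller pseudocounts, Srsf3 on centring, and Lsm2, Snrpd3 and Srsf3 with the trend removed. With the longest transcript, Lsm4, Snrpd1 and Snrpd2 came under it and Lsm2 and Srsf3 came to pass it. None of the 17 changed sign under any alternative that kept it. The cause of these shifts was not tested. The number of reads is unknown, so the precision of low genes such as Lsm2 and Lsm11 is unknown too.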
